A study of Mus musculus with 20 samples.

Results

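The DNA methylation and TET machinery was followed here as 10 genes: the methyltransferase genes Dnmt1, Dnmt3a, Dnmt3b and Dnmt3l, the UHRF genes Uhrf1 and Uhrf2, the oxidase genes Tet1, Tet2 and Tet3, and Dppa3. They were found by gene symbol in each of the authors' 5 deposited comparison tables, where all 10 were present among 24411 gene symbols. Poly(A) RNA had been copied by Smart-seq2 with an oligo-dT primer from mouse eggs and embryos, with 10 to 15 oocytes or embryos pooled for each of the 20 samples. The series title names zygotic genome activation and the nuclear receptor Nr5a2. C57BL/6J, an inbred strain, gave 3 samples of each of 4 stages, namely the MII egg, the G1 zygote, the G2 zygote and the 2-cell embryo in G2. B6CASTF1, a hybrid whose maternal strain the labels leave unstated, gave 3 samples of zygotes in G1, 3 in G2 and 2 of the 2-cell embryo in G2. The authors' C57BL/6J comparisons name their groups WT (wild type), and those of B6CASTF1 name no genotype. All were untreated, and all came from oocytes released from a dbcAMP block and matured for 12 h in M16 medium. Zygotes and embryos were obtained by fertilization in vitro and kept in KSOM medium under 5% oxygen. Maturation and fertilization outside the animal limit both strains as models of embryos that develop in the oviduct.

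In mammals a methyl group on the cytosine of a CG pair is copied to the new DNA strand by DNMT1, which UHRF1 brings to replicated DNA, and is set anew by DNMT3A and DNMT3B. DNMT3L has no catalytic activity of its own and stimulates the DNMT3 enzymes in germ cells. TET enzymes oxidize methylcytosine, TET3 being the form known from the egg and zygote, and DPPA3 (also called STELLA) protects the maternal genome from TET3 and keeps UHRF1 and DNMT1 out of the oocyte nucleus. After fertilization most methylation of both parental genomes is erased, while the egg's stored RNA is degraded and the embryo's own transcription starts.

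Of the 10 genes, 3 had a low 2-cell stage and 2 a high one in both strains, and the other 5 had no change called alike in both. Dnmt1, Uhrf1 and Tet3 fell from the G2 zygote to the 2-cell embryo in both strains, whereas Dnmt3a and Tet1 rose in both. Dppa3, by far the most abundant of the 10, moved in opposite directions in the 2 strains at this step. Dnmt3l rose in C57BL/6J, and Tet2 fell and Uhrf2 rose in B6CASTF1. Dnmt3b passed the test in no comparison.

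Promoter sequence is shown for 4 of the 5 genes that moved the same way in both strains, so that the CG content of genes that fell can be set beside that of a gene that rose. The windows are the 250 bases before an annotated start, from RefSeq on GRCm38.p6, read 5′ to 3′ on the strand of the gene. CG pairs are in capitals, as is any AGGTCA or its reverse complement TGACCT, the half-site of nuclear receptors, the class to which Nr5a2 belongs. The first Dnmt1 window, chr9:20959889-20960138 on the minus strand, lies upstream of the gene and overlaps no annotated gene. The second, chr9:20952980-20953229, lies in a Dnmt1 intron before a start downstream of the first, labelled downstream below. A further Dnmt1 window, chr9:20952624-20952873, lies downstream of both and is not printed. The Uhrf1 window is chr17:56304063-56304312 on the plus strand, in an intron behind the most upstream start. The Tet3 window is chr6:83441679-83441928 on the minus strand, in an intron and over an exon of the noncoding B230319C09Rik. The Dnmt3a window is chr12:3806730-3806979 on the plus strand, in an intron.
Dnmt1, upstream start: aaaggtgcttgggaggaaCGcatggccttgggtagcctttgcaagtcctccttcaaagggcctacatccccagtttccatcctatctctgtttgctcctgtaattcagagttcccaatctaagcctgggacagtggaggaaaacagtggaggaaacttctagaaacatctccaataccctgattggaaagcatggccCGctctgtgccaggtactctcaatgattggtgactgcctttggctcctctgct
Dnmt1, downstream start: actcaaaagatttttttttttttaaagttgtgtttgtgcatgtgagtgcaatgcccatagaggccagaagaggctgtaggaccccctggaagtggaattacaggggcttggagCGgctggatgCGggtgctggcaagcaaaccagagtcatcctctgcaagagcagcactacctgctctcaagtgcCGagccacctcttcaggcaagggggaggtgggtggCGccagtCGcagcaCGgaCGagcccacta
Uhrf1: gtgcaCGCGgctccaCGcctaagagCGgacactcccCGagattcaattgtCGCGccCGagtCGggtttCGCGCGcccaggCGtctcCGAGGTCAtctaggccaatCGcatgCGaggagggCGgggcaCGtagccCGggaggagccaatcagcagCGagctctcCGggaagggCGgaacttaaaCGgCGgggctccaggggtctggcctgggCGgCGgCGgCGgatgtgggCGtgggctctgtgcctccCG
Tet3: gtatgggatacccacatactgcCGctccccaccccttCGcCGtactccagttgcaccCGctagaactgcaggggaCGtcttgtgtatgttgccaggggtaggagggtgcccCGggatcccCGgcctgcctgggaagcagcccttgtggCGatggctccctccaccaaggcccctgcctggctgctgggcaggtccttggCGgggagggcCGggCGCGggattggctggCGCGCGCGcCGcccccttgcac
Dnmt3a: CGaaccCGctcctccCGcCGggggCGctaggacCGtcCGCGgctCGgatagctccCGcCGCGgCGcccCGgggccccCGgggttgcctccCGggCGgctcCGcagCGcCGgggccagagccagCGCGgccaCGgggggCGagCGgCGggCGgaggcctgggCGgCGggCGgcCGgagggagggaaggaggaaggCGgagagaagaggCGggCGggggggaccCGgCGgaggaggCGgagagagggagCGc

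The upstream Dnmt1 window held 2 CG pairs and the downstream one 7, beside a median of 6 over all 32851 windows of 27025 genes. Dnmt1 is known for an oocyte-specific first exon apart from its somatic one, and the gene-level values used here do not separate the transcripts that start at each. The further Dnmt1 window, the most downstream, over an exon of the gene and not printed, held 26. A count as high was met in 9.59% of all windows, so the starts of Dnmt1 range from sparse to dense. The other 3 windows printed held more, with 17 CG pairs for Tet3, 30 for Uhrf1 and 38 for Dnmt3a. A count as high as that of Dnmt3a was met in 1.88% of all windows, and one as high as that of Uhrf1 in 5.94%. The windows of these genes that overlap exons and are not printed held 10 CG pairs for Uhrf1, and 40 and 15 for Dnmt3a. Tet1, the other gene that rose in both strains, had 15 CG pairs in its window, which is not printed. A count as high was met in 27.3% of all windows. High and low CG density both occurred among the windows of the genes that fell, and the windows of the genes that rose went from 15 to 40. AGGTCA, searched on both strands, was found in 4 of the 16 windows of the 9 members with an entry, beside 14.0% of all windows. Those were the Uhrf1 window printed and windows of Dnmt3a, Tet1 and Uhrf2 that are not printed. These matches describe the letters of the windows only.

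Values per stage are implied levels, that is the mean normalized count of each stage worked out from the strain's mean and its log2 fold changes per the authors' deposited tables. No single sample has a value in them, so library depth, the spread within a group and whether groups overlap are unknown, and precision rests on the authors' standard error (SE). The 2 strains were normalized apart, and levels are compared between stages of 1 strain only. Levels are relative to the authors' normalization, so fewer molecules per embryo and a larger total from other genes cannot be told apart, nor can fewer cells of a kind and less RNA per cell. As RNA was copied from its poly(A) tail, a change in tail length cannot be told apart from a change in amount. This holds for each rise and fall given here, and tail length was not tested. Between genes, levels are compared per kb of the longest coding transcript in GENCODE M21. No label says that samples of 1 group were taken from different females or cultures, so the p-values measure the spread between these samples, which may be technical. The libraries of the strains carry separate series of library numbers in the labels, so strain and library set cannot be told apart.

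**Figure D1:**
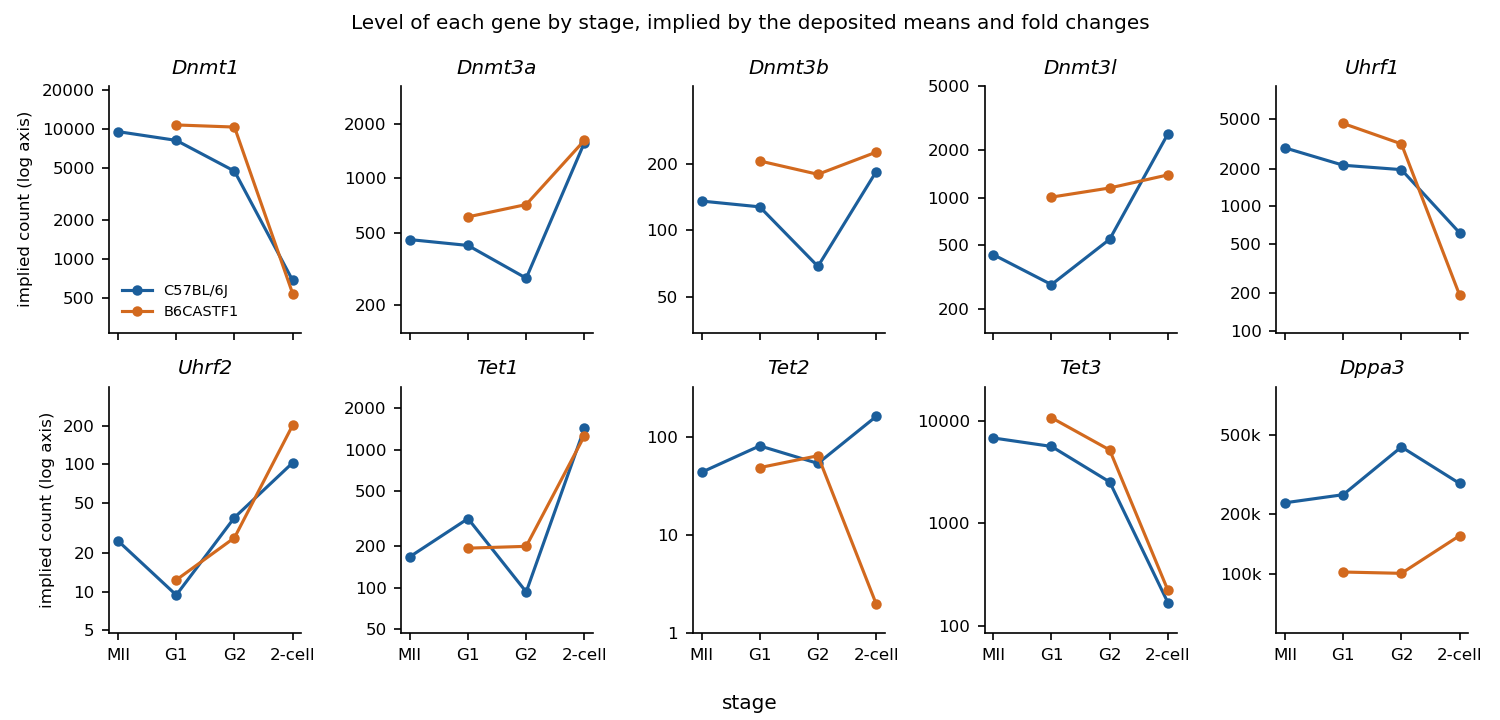
Implied normalized count of each of the 10 genes (y axis, log scale, a range of its own in each panel) at each stage (x axis) in C57BL/6J (blue) and B6CASTF1 (orange); points are means with no value per sample behind them, and heights are not comparable between strains. Dnmt1, Uhrf1 and Tet3 end lowest at the 2-cell stage, and Dnmt3a and Tet1 end highest, in both strains.

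A gene was called when the adjusted p of the authors' DESeq2 Wald test was under 0.05. From MII egg to G1 zygote in C57BL/6J, 0 of the 10 members were called, and 0 had an unadjusted p under 0.05, where 1.62% of 13551 genes tested rose and 1.12% fell. From G1 to G2 zygote in C57BL/6J, 1 member rose and 1 fell, where 5.01% of 13264 genes rose and 2.87% fell, and 4 members had an unadjusted p under 0.05. From G2 zygote to 2-cell embryo in C57BL/6J, 3 rose and 4 fell, where 25.0% of 12839 genes rose and 25.3% fell. In B6CASTF1, 0 rose and 2 fell from G1 to G2 zygote, where 9.63% of 14668 genes rose and 9.63% fell. At the 2-cell step of B6CASTF1, 4 rose and 4 fell, where 33.1% of 16128 genes rose and 26.8% fell. The median log2 fold change of the members at the 2-cell step was 1.43 in C57BL/6J, beside 0.17 over all genes tested, and 0.30 in B6CASTF1, beside 0.55. With about as many members rising as falling, these medians describe no common direction. Over genes averaging 100 counts or more, the median at this step was itself 0.23 in C57BL/6J and 0.21 in B6CASTF1, and each call of a member kept its direction when measured from it. Measured so, Uhrf2 in B6CASTF1 lost its call, with a log2 fold change of 2.72 (adjusted p = 0.069).

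**Figure D2:**
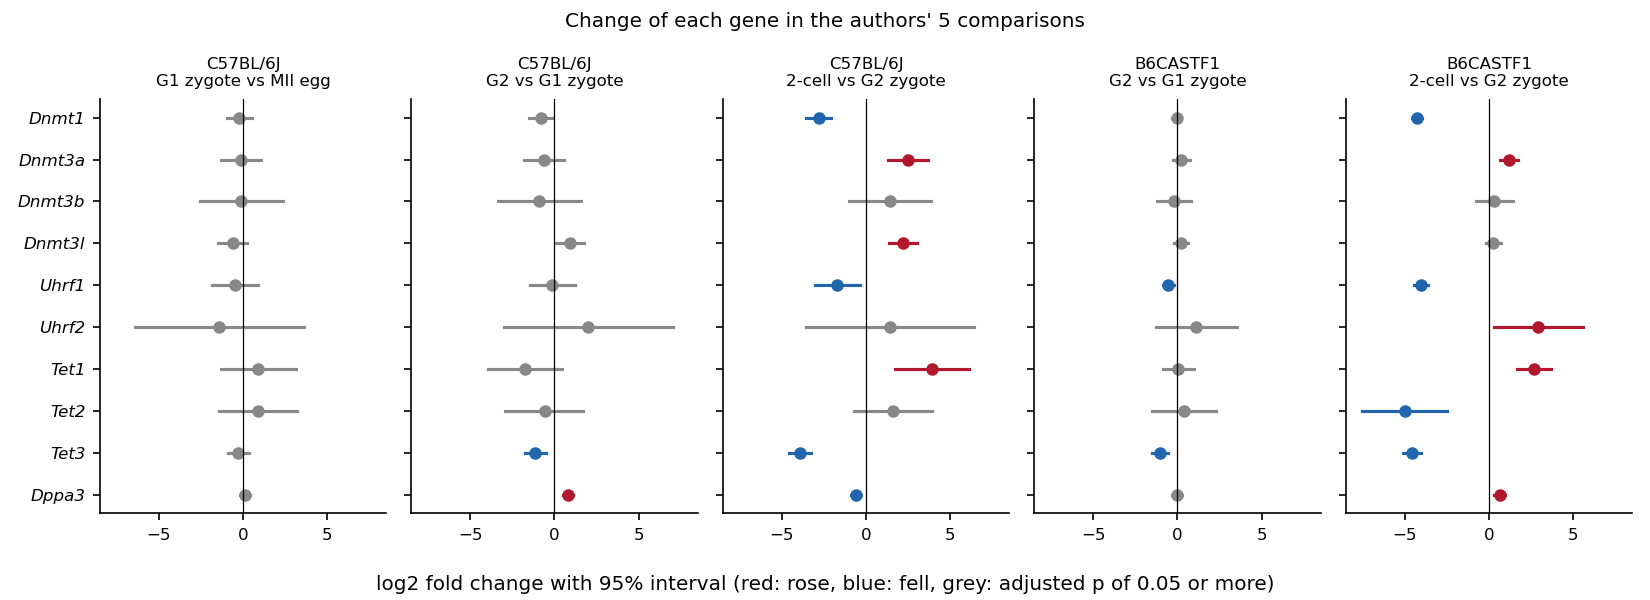
Log2 fold change (x axis) of each gene (y axis) in the authors' 5 comparisons, with lines for the 95% interval from the authors' SE; red marks genes that rose, blue genes that fell and grey genes not called. The panel of G1 zygotes against MII eggs has no coloured gene, and the 2-cell panels have 7 in C57BL/6J and 8 in B6CASTF1.

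The maintenance genes shared a low 2-cell stage. Dnmt1 (chromosome 9, 20907209 to 20959888, minus strand, GRCm38), which copies methylation after replication, had an implied level of 9588 in C57BL/6J MII eggs, 8206 in G1 zygotes, 4746 in G2 zygotes and 679 in 2-cell embryos. In B6CASTF1 it stood at 10798 in G1 zygotes, 10400 in G2 zygotes and 537 in 2-cell embryos. The 2-cell embryos were thus the low stage in both strains, and the egg and zygote stages did not differ from their neighbours past the threshold. At the 2-cell step Dnmt1 fell by 2.81 on the log2 scale in C57BL/6J (SE 0.37, adjusted p = 1.1e-12) per the authors' deposited table, a 6.99-fold drop. In B6CASTF1 the drop per the authors' deposited table was 19.4-fold (log2 fold change -4.27, SE 0.16, adjusted p = 3.2e-164). From G1 to G2 zygote the log2 fold change was -0.79 in C57BL/6J (SE 0.37, adjusted p = 0.21) and -0.05 in B6CASTF1 (SE 0.13, adjusted p = 0.87) per the authors' deposited tables, and neither was called.

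Uhrf1 (chromosome 17, 56303321 to 56323486, plus strand), the protein that reads CG pairs methylated on 1 strand and recruits DNMT1, showed a similar order of stages. Its implied level was 2955 in C57BL/6J MII eggs, 2144 in G1 zygotes, 1976 in G2 zygotes and 614 in 2-cell embryos. In B6CASTF1 the 3 stages stood at 4644, 3182 and 194. In B6CASTF1, of which no eggs were sampled, Uhrf1 fell by 0.55 on the log2 scale from G1 to G2 zygote (SE 0.17, adjusted p = 0.0087) per the authors' deposited table. In C57BL/6J the log2 fold change of that step was -0.12 (SE 0.69, adjusted p = 0.98) per the authors' deposited table. At the 2-cell step Uhrf1 fell 16.4-fold in B6CASTF1 (log2 fold change -4.03, SE 0.20, adjusted p = 1.2e-88) and 3.22-fold in C57BL/6J (-1.69, SE 0.69, adjusted p = 0.032) per the authors' deposited tables.

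Uhrf2 (chromosome 19, 30030513 to 30093722, plus strand), the paralogue of Uhrf1, was scarce throughout. Its implied level lay between 9.44 and 38.3 in C57BL/6J eggs and zygotes and at 103 in 2-cell embryos, and in B6CASTF1 it went from 12.4 and 26.6 in zygotes to 203. The rise of Uhrf2 per the authors' deposited table of B6CASTF1 was 7.63-fold (log2 fold change 2.93, SE 1.34, adjusted p = 0.048). In C57BL/6J the SE of 2.55 was wider than the log2 fold change of 1.43 per the authors' deposited table. Per kb, Uhrf1 held 99.1% of the UHRF level in C57BL/6J MII eggs and 85.4% in 2-cell embryos. In B6CASTF1 its share was 99.7% in G1 zygotes and 48.6% in 2-cell embryos, where the paralogues were at about the same level per kb.

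Of the de novo genes, Dnmt3a rose at the 2-cell step in both strains, Dnmt3l in C57BL/6J, and Dnmt3b was not called in either. Dnmt3a (chromosome 12, 3806007 to 3914443, plus strand), which methylates unmethylated DNA and is the main such enzyme of the growing oocyte, had an implied level of 458 in C57BL/6J MII eggs, 425 in G1 zygotes, 280 in G2 zygotes and 1577 in 2-cell embryos. In B6CASTF1 it stood at 612, 716 and 1623. Dnmt3a rose 5.63-fold at the 2-cell step in C57BL/6J (log2 fold change 2.49, SE 0.61, adjusted p = 1.6e-04) and 2.27-fold in B6CASTF1 (SE 0.28 on the log2 scale, adjusted p = 6.4e-05) per the authors' deposited tables. Neighbouring stages before that step did not differ past the threshold. An antisense gene, Dnmt3aos, overlaps Dnmt3a with a mean count of 9.52 in C57BL/6J and 54.9 in B6CASTF1 per the authors' deposited tables, and Smart-seq2 does not mark the strand, so its reads cannot be told apart from those of Dnmt3a where they overlap.

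Dnmt3b (chromosome 2, 153649450 to 153687730, plus strand), the other de novo enzyme, was low and imprecise. Its implied level was between 68.6 and 185 in C57BL/6J and between 180 and 227 in B6CASTF1. The log2 fold change of Dnmt3b at the 2-cell step was 1.43 in C57BL/6J (SE 1.25, adjusted p = 0.35) and 0.33 in B6CASTF1 (SE 0.57, adjusted p = 0.63) per the authors' deposited tables. At these SEs a change of the size seen for Dnmt3a in B6CASTF1 was not detectable for Dnmt3b in C57BL/6J.

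Dnmt3l (chromosome 10, 78041947 to 78063622, plus strand), the cofactor without catalytic activity, gained more level per kb than the other DNMT genes in C57BL/6J. Its implied level was 438 in MII eggs, 284 in G1 zygotes, 547 in G2 zygotes and 2507 in 2-cell embryos. It rose 4.58-fold at the 2-cell step (log2 fold change 2.20, SE 0.43, adjusted p = 1.5e-06) per the authors' deposited table. In B6CASTF1 Dnmt3l was at 1006 in G1 zygotes, at 1148 in G2 zygotes and at 1387 in 2-cell embryos. There the log2 fold change of the 2-cell step was 0.27 (SE 0.23, adjusted p = 0.31) per the authors' deposited table and was not called. Aire, on the opposite strand, overlaps the gene and had a mean count of 43.9 in C57BL/6J and 89.5 in B6CASTF1 per the authors' deposited tables, beside 944 and 1155 for Dnmt3l.

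Because Dnmt1 fell while Dnmt3a and, in C57BL/6J, Dnmt3l rose, the make-up of the DNMT transcripts turned over. Per kb, Dnmt1 was 83.7% of the summed DNMT level in C57BL/6J MII eggs, 85.9% in G1 zygotes, 70.1% in G2 zygotes and 6.81% in 2-cell embryos. Dnmt3l went from 12.3% in MII eggs to 81.1% in 2-cell embryos. In B6CASTF1 Dnmt1 went from 73.5% and 70.4% in zygotes to 8.53% in 2-cell embryos, and Dnmt3l from 22.1% and 25.0% to 70.9%. The catalytic de novo pair remained the smaller part: Dnmt3a was 9.59% and Dnmt3b 2.52% of the C57BL/6J 2-cell level, against 15.6% and 4.90% in B6CASTF1. These shares carry no error, since no values per sample stand behind them, and they rest on 1 transcript length per gene.

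**Figure D3:**
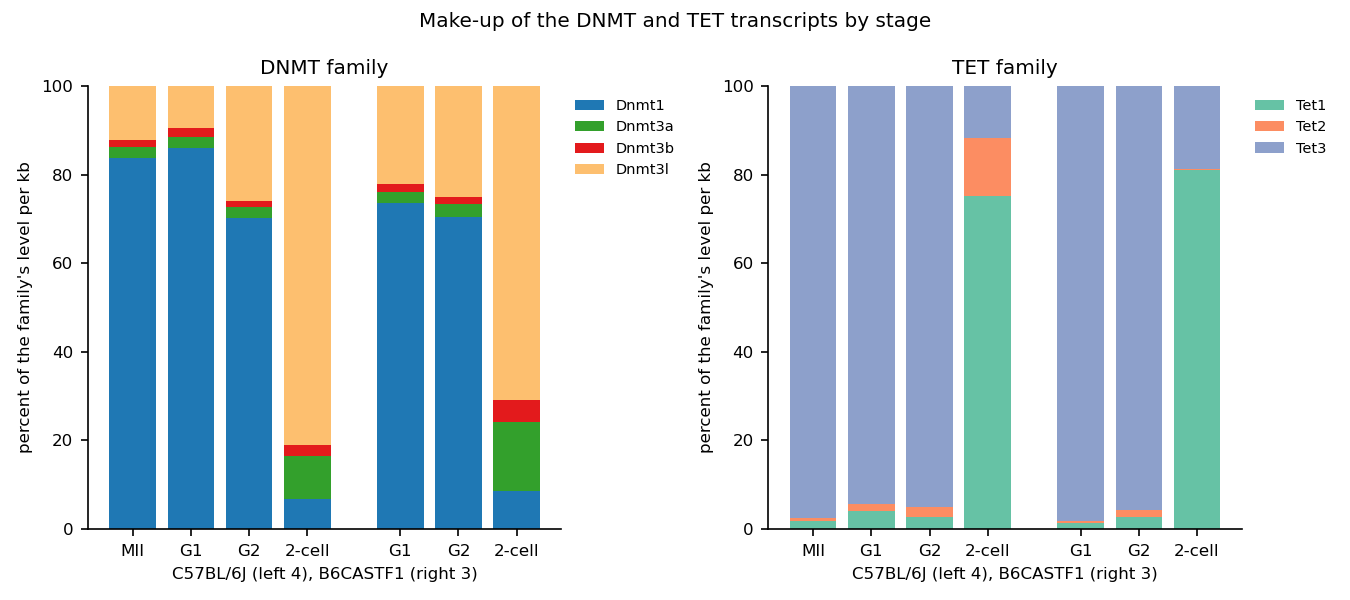
Share of each gene in the summed implied level per kb (y axis, percent) of the DNMT family (left) and the TET family (right) by stage (x axis), in C57BL/6J (left 4 bars) and B6CASTF1 (right 3 bars). Dnmt1 takes 70.1% or more of the DNMT bars in eggs and zygotes and under 10% at the 2-cell stage, and Tet3 gives way to Tet1 in the TET bars.

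Among the oxidases, Tet3 had the highest level per kb in eggs and zygotes and fell steeply in both strains. Tet3 (chromosome 6, 83362373 to 83459084, minus strand) had an implied level of 6808 in C57BL/6J MII eggs, 5629 in G1 zygotes, 2536 in G2 zygotes and 169 in 2-cell embryos. In B6CASTF1 it stood at 10722, 5200 and 223. G2 zygotes and 2-cell embryos were each lower than the stage before them. Tet3 was the sole member called in the same direction in both strains at both steps after G1. From G1 to G2 it fell by 1.15 on the log2 scale in C57BL/6J (SE 0.32, adjusted p = 0.0084) and by 1.04 in B6CASTF1 (SE 0.24, adjusted p = 1.5e-04) per the authors' deposited tables. Over all genes tested in both strains, 1.24% of 12517 fell in both at that step. At the 2-cell step Tet3 fell 15.0-fold in C57BL/6J (log2 fold change -3.90, SE 0.33, adjusted p = 4.8e-30) and 23.3-fold in B6CASTF1 (-4.54, SE 0.27, adjusted p = 8.7e-61) per the authors' deposited tables.

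Tet1 (chromosome 10, 62804570 to 62908996, minus strand), the form known from pluripotent cells, took the opposite course. Its implied level was 168 in C57BL/6J MII eggs, 318 in G1 zygotes, 93.4 in G2 zygotes and 1435 in 2-cell embryos. In B6CASTF1 it was 194 in G1 zygotes, 200 in G2 zygotes and 1266 in 2-cell embryos. Tet1 rose 15.4-fold in C57BL/6J (log2 fold change 3.94, SE 1.12, adjusted p = 0.0015) and 6.33-fold in B6CASTF1 (2.66, SE 0.52, adjusted p = 1.0e-06) at the 2-cell step per the authors' deposited tables. The earlier log2 fold changes of Tet1 in C57BL/6J, 0.92 from egg to G1 and -1.77 from G1 to G2, had SEs of 1.12 each per the authors' deposited tables and were not called.

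Tet2 (chromosome 3, 133463679 to 133545139, minus strand), an oxidase best known from blood cells, was the scarcest of the 3 in eggs and zygotes. Its implied level in C57BL/6J was 43.3 in MII eggs, 80.4 in G1 zygotes, 53.3 in G2 zygotes and 160 in 2-cell embryos, with no step called. In B6CASTF1 it went from 48.3 and 63.8 in zygotes to 1.99 in 2-cell embryos. The log2 fold change of Tet2 at that step was -5.01 (SE 1.30, adjusted p = 2.8e-04) per the authors' deposited table of B6CASTF1, with the 2-cell group of 2 samples, and 1.59 (adjusted p = 0.26) in that of C57BL/6J, where the SE was nearly as large.

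The TET transcripts thus changed from Tet3 to Tet1. Per kb, Tet3 was 97.4% of the summed TET level in C57BL/6J MII eggs, 94.3% in G1 zygotes, 95.0% in G2 zygotes and 11.7% in 2-cell embryos, where Tet1 was 75.2% and Tet2 13.1%. In B6CASTF1 Tet3 went from 98.1% and 95.8% in zygotes to 18.8%, and Tet1 reached 81.0%. The summed TET level per kb was 641 in C57BL/6J MII eggs and 133 in 2-cell embryos, so the sum was lower at the end although Tet1 rose.

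Dppa3 (chromosome 6, 122626410 to 122630272, plus strand), the protector of maternal methylation, was on a scale of its own. By mean normalized count it ranked 1 of 24411 genes in C57BL/6J and 3 in B6CASTF1, with 1.55% and 0.565% of all normalized counts per the authors' deposited tables. Within stages its implied level ranked 7, 5, 1 and 3 from MII egg to 2-cell embryo in C57BL/6J, and 24, 15 and 4 from G1 zygote to 2-cell embryo in B6CASTF1. Its implied level in C57BL/6J was 227932 in MII eggs, 250274 in G1 zygotes, 434077 in G2 zygotes and 284901 in 2-cell embryos, with G2 zygotes highest. In B6CASTF1 the stages stood at 102535, 100995 and 155995, with 2-cell embryos highest. In C57BL/6J G2 zygotes the implied level of Dppa3 was above that of both neighbouring stages. The gene rose 0.79 on the log2 scale from G1 to G2 (SE 0.16, adjusted p = 2.5e-05) and fell by 0.61 to the 2-cell embryo (SE 0.16, adjusted p = 3.5e-04) per the authors' deposited tables. Both of these steps use the same G2 samples. In B6CASTF1 it was not called within the zygote (log2 fold change -0.02, SE 0.14, adjusted p = 0.97) and rose 0.63 at the 2-cell step (SE 0.16, adjusted p = 2.4e-04) per the authors' deposited tables. Of 12573 genes tested in both strains, 124 (0.986%) had opposite calls at the 2-cell step, and Dppa3 was the 1 member among them. A processed pseudogene, Dppa3-ps (chromosome X, 37625647 to 37626097), resembles its transcript and has no row in these tables, so reads that fit both cannot be assigned with certainty.

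Whether the strains differed was tested directly, by dividing the gap between the authors' log2 fold changes by the SE of that gap, with a normal p adjusted across all genes. From G1 to G2 zygote 1 of the 10 members had a lower log2 fold change in B6CASTF1, as had 0.718% of 15324 genes, and 0 had a higher one, beside 0.770%. This was Dppa3, whose change was lower in B6CASTF1 (difference -0.82, SE 0.21, adjusted p = 0.013). At the 2-cell step 4 of 10 had a lower value in B6CASTF1, beside 3.85% of 15324 genes, and 1 had a higher value, beside 9.18%. Dppa3 had the smallest p, with a difference of 1.23 (SE 0.22, adjusted p = 2.1e-06). The drops of Dnmt1 (difference -1.47, SE 0.41, adjusted p = 0.0045) and Uhrf1 (-2.35, SE 0.72, adjusted p = 0.013) were deeper in B6CASTF1. The rise of Dnmt3l was smaller there (difference -1.92, SE 0.48, adjusted p = 0.0014), and the change of Tet2 was far lower (difference -6.59, SE 1.75, adjusted p = 0.0028).

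For Tet3 the strains were not shown to differ at the 2-cell step: the difference was -0.64, with a 95% interval from -1.48 to 0.20 (adjusted p = 0.40). Dnmt3a gave -1.31 (interval -2.62 to -0.01, adjusted p = 0.21) and Tet1 -1.28 (interval -3.71 to 1.15, adjusted p = 0.61). The intervals were wider for Dnmt3b (difference -1.10, interval -3.80 to 1.60) and for Uhrf2 (interval -4.15 to 7.14), and both include 0. Over genes averaging 100 counts or more, the authors' deposited tables had a median SE of 0.80 to 0.87 for C57BL/6J and of 0.35 to 0.40 for B6CASTF1, so most of the uncertainty of these differences came from C57BL/6J.

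**Figure D4:**
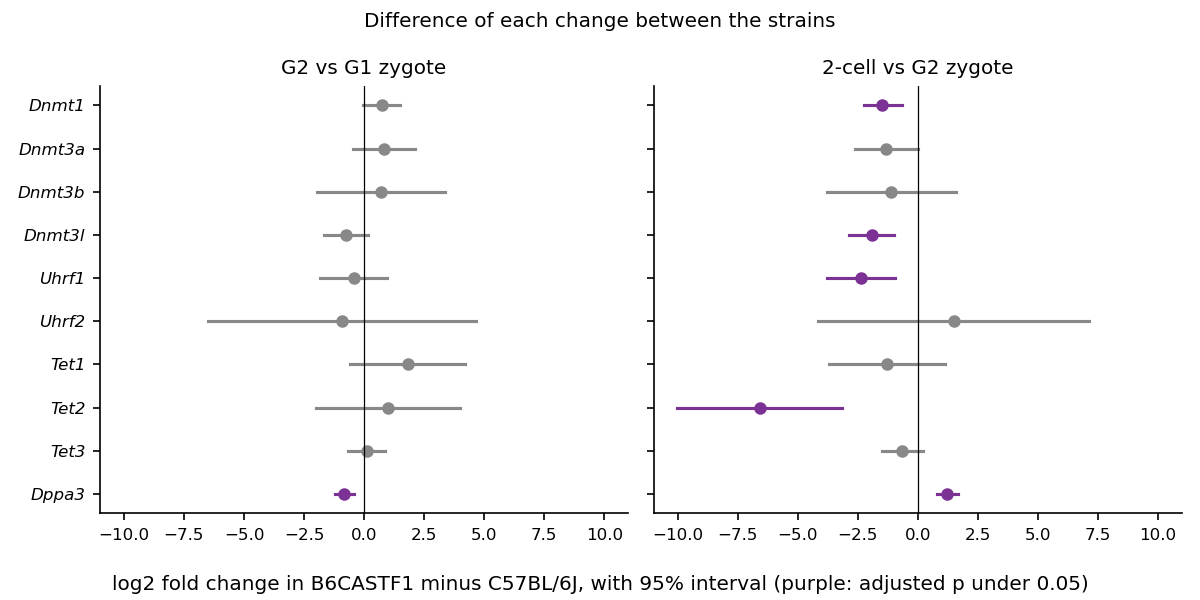
Log2 fold change in B6CASTF1 minus that in C57BL/6J (x axis) for each gene (y axis), for G2 against G1 zygotes (left) and 2-cell embryos against G2 zygotes (right), with lines for the 95% interval; purple marks an adjusted p under 0.05. Dppa3 lies at -0.82 on the left and at 1.23 on the right, and is the sole purple gene on the left.

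The 2 differences of Dppa3 have opposite signs and share the G2 samples of both strains. Summed from G1 zygote to 2-cell embryo, a value computed after the steps had been seen, the log2 change of Dppa3 was 0.19 in C57BL/6J and 0.61 in B6CASTF1, with an SE of at most 0.22 in each. The difference over the whole interval was 0.42 (interval -0.19 to 1.02 with the largest possible SE). For Dnmt3l the sums were 3.14 and 0.46, a difference of -2.68 (interval -4.01 to -1.35). For Uhrf1 they were -1.80 and -4.58, a difference of -2.78 (interval -4.77 to -0.79), and for Tet2 the difference was -5.60 (interval -10.16 to -1.03). For Dnmt1 the sums were -3.60 and -4.33, a difference of -0.73 whose interval, -1.84 to 0.38, includes 0. The strain differences of Dnmt3l, Uhrf1 and Tet2 therefore exceeded even the largest possible error over the longer interval. Those of Dppa3 and Dnmt1 did not exceed it. As that SE is an upper bound, this does not decide whether they differ there.

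From MII egg to 2-cell embryo in C57BL/6J, the 3 steps were added and the shared samples allowed for in the SE. Over this span 3 members rose and 3 fell, where 21.1% of 15900 genes rose and 21.0% fell. Tet3 fell 40.2-fold (net log2 fold change -5.33, SE 0.33, adjusted p = 7.6e-56), Dnmt1 14.1-fold (-3.82, SE 0.37, adjusted p = 8.2e-23) and Uhrf1 4.81-fold (-2.27, SE 0.69, adjusted p = 0.0036). The 3 that rose were Dnmt3l (5.72-fold, net log2 fold change 2.52, SE 0.43, adjusted p = 2.9e-08), Tet1 (8.53-fold, 3.09, SE 1.12, adjusted p = 0.016) and Dnmt3a (3.44-fold, 1.78, SE 0.60, adjusted p = 0.0094). Dppa3 ended near its egg level, with a net log2 fold change of 0.32 (SE 0.16, adjusted p = 0.085). The calls of Uhrf1, Tet1 and Dnmt3a were lost when the SE ignored the shared samples.

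Other genes of the pathway were counted from lists chosen with earlier results of these data known. Of 18 tested relatives and cofactors of the DNMT and TET enzymes, 3 rose and 5 fell at the 2-cell step in C57BL/6J, and 6 rose and 7 fell in B6CASTF1. Among all genes tested at this step, 25.0% rose and 25.3% fell in C57BL/6J, and 33.1% and 26.8% in B6CASTF1. Hells, the chromatin remodeller that opens DNA to methylation, went from an implied level of 3718 in G2 zygotes to 1012 in 2-cell embryos of C57BL/6J (log2 fold change -1.88, SE 0.35, adjusted p = 5.4e-07 per the authors' deposited table). Ogt, the O-GlcNAc transferase that binds TET proteins, rose 5.04-fold in C57BL/6J (adjusted p = 1.1e-05) and 4.21-fold in B6CASTF1 (adjusted p = 2.2e-20) per the authors' deposited tables. Idh1, which makes the 2-oxoglutarate that TET enzymes consume, dropped from 991 to 33.1 in B6CASTF1 (log2 fold change -4.90, SE 0.53, adjusted p = 7.7e-20) per the authors' deposited table. Trdmt1, a tRNA methyltransferase of the DNMT fold, fell 8.71-fold there (adjusted p = 7.0e-22).

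Of 10 tested genes in a list named for readers of methylated CG pairs, 2 rose and 3 fell in C57BL/6J at the 2-cell step. In B6CASTF1 1 rose and 4 fell, beside the same shares of all genes, 25.0% and 25.3%, and 33.1% and 26.8%. A place in this list, which includes Mbd3 and Ctcf, does not mean that the protein binds methylated DNA. Mbd3, a subunit of the NuRD repressor complex, rose 21.8-fold from an implied level of 14.1 in C57BL/6J (log2 fold change 4.45, SE 1.70, adjusted p = 0.020) and 4.30-fold in B6CASTF1 (adjusted p = 5.9e-11) per the authors' deposited tables. Zbtb33, the zinc finger reader also called Kaiso, went from 435 to 21.3 in B6CASTF1 (adjusted p = 1.0e-07) per the authors' deposited table. Base excision repair, which removes oxidized or deaminated methylcytosine, had 5 risers and 8 fallers of 22 tested genes in C57BL/6J, and 11 and 9 of 27 in B6CASTF1, where all genes gave 25.0% and 25.3%, and 33.1% and 26.8%. In B6CASTF1 the DNA glycosylase Neil3 went from 14321 to 258 (log2 fold change -5.79, SE 0.26, adjusted p = 4.8e-106), and Gadd45b, a stress gene linked to demethylation, from 82.0 to 14606 (7.48, SE 0.42, adjusted p = 2.0e-70) per the authors' deposited table. The abasic-site nuclease Apex1 rose 9.23-fold there (adjusted p = 7.1e-29), and Parp1 rose 9.36-fold in C57BL/6J (adjusted p = 1.5e-05), per the authors' deposited tables.

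Of 18 tested genes for imprint and methylation protection, 5 rose and 4 fell in C57BL/6J at the 2-cell step, and 7 rose and 8 fell in B6CASTF1. Of all genes, 25.0% rose and 25.3% fell in C57BL/6J, and 33.1% and 26.8% in B6CASTF1. Zfp57, the zinc finger protein that keeps imprints methylated, rose 2.96-fold from MII egg to G1 zygote in C57BL/6J (log2 fold change 1.57, SE 0.31, adjusted p = 7.9e-05) per the authors' deposited table, at a step where no member was called. It then fell 9.81-fold from G2 zygote to 2-cell embryo in C57BL/6J (adjusted p = 9.6e-24) and 34.1-fold in B6CASTF1 (adjusted p = 1.3e-82) per the authors' deposited tables. Trim28, the corepressor that Zfp57 binds, fell 2.82-fold from G1 to G2 zygote in C57BL/6J (adjusted p = 0.042) and 5.14-fold in B6CASTF1 (adjusted p = 1.4e-13) per the authors' deposited tables. Nlrp5, a maternal gene of the subcortical complex, fell 8.97-fold in C57BL/6J (adjusted p = 3.4e-09) and 6.49-fold in B6CASTF1 (adjusted p = 5.3e-31) at the 2-cell step per the authors' deposited tables.

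Of 17 tested genes of the methyl donor and folate cycle, 7 rose and 4 fell in C57BL/6J, and of 20 tested in B6CASTF1, 10 rose and 4 fell, beside 25.0% and 25.3% of all genes in C57BL/6J and 33.1% and 26.8% in B6CASTF1. The median log2 fold change of this list was -0.43 in C57BL/6J, beside 0.17 over all genes tested, and 2.28 in B6CASTF1, beside 0.55. In C57BL/6J the count of risers and the median thus differ in direction. Mat2a, which makes the methyl donor S-adenosylmethionine, rose 6.76-fold in C57BL/6J (log2 fold change 2.76, SE 0.47, adjusted p = 2.5e-08) and 10.4-fold in B6CASTF1 (3.38, SE 0.22, adjusted p = 3.1e-53) per the authors' deposited tables. Its regulatory partner Mat2b fell 3.56-fold in B6CASTF1 (adjusted p = 2.9e-69), as did the mitochondrial folate enzyme Mthfd2 (7.46-fold, adjusted p = 2.8e-78), per the authors' deposited table. Folate enzyme Shmt2 went from 674 to 1.33 in C57BL/6J (log2 fold change -8.99, SE 0.94, adjusted p = 3.2e-20) per the authors' deposited table.

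Genes with the course most like that of a member were found by the Euclidean distance over the 5 log2 fold changes of the authors' deposited tables, among 7548 genes that averaged 100 counts or more in both strains. Predicted genes, with Gm or Rik names, were left out of the search. The nearest to Dppa3 were Rps27l (distance 0.338), Nelfcd (0.454) and Snrpe (0.462). Dnmt1 lay closest to Zufsp (0.275), Ap3m1 (0.425) and Ipcef1 (0.448), and Tet3 to Whamm (0.548), Ptpre (0.649) and Cept1 (0.708). Dnmt3a lay closest to Ptp4a1 (0.459), Gdi2 (0.491) and Wdr12 (0.556), Dnmt3l to Aspscr1 (0.396), Actr10 (0.528) and Fry (0.789), and Uhrf1 to Spg20 (0.583), Helq (0.589) and Ngly1 (0.687). Between members the distance was 1.44 for Dnmt1 and Uhrf1, 1.45 for Dnmt3a and Dnmt3b and 1.55 for Dnmt1 and Tet3, and 10.8 for Tet1 and Tet3. The nearest genes were thus no members, and the first pairs lay far closer than the oxidase pair.

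The labelled stages were checked against marker genes. The summed implied level of 8 oocyte genes went from 482339 in C57BL/6J MII eggs to 232683, 92993 and 21394, and from 466002 to 122141 and 26116 in B6CASTF1. That of 8 genes of the 2-cell embryo went from 357, 436 and 628 to 31875 in C57BL/6J, and from 523 and 1865 to 53524 in B6CASTF1. Of the oocyte genes, Zp3 rose at the 2-cell step in both strains (log2 fold change 1.69, adjusted p = 5.0e-08 in C57BL/6J, and 1.08, adjusted p = 6.1e-10 in B6CASTF1, per the authors' deposited tables). Obox6 made most of the 2-cell sums, at 26179 in C57BL/6J and 32932 in B6CASTF1. Dux went down from G2 zygotes, to 0.475 and 16.0, and was not called at that step. These 2 sums move with the falling and the rising members, and their part in the members' changes was not tested. Of 10 cumulus and granulosa markers, 4 were at 0 in C57BL/6J and 2 in B6CASTF1, Nr5a1 in both, while Foxl2 had a mean count under 1. Their sum was 1607 in C57BL/6J MII eggs, of which Cyp19a1 made 1597, then 1064, 844 and 302, and 2521, 1437 and 1262 in B6CASTF1. Not every marker of the list went down. Amhr2, the receptor of anti-Müllerian hormone, had an implied level of 286 in C57BL/6J 2-cell embryos and 891 in those of B6CASTF1, most of both sums. It rose from under 1 in G2 zygotes (adjusted p = 0.0023 and 2.7e-18 per the authors' deposited tables). Tnfaip6 went from 65.3 in G1 zygotes to 7.50 in G2 zygotes and 299 in 2-cell embryos of B6CASTF1, without an adjusted p in the authors' test. Inha, at 0 in C57BL/6J, had an implied level of 284 in B6CASTF1 G1 zygotes and 1.53 in G2 zygotes. Its change had no adjusted p either. The strains thus differed in this marker at G1, and its part in the members' values was not tested. Of 7 sperm and testis markers the sum lay between 79.8 and 190 in C57BL/6J and between 25.0 and 146 in B6CASTF1. Of 5 blood and oviduct markers, the sum was 49.7 to 86.7 before the 2-cell stage and 6349 there in C57BL/6J, and 83.8, 109 and 9380 in B6CASTF1. At the 2-cell stage Hba-a1 (3827 in C57BL/6J, 2858 in B6CASTF1) and Epcam (2287 and 6336) made most of it, Hbb-bs was at 0 and the leukocyte gene Ptprc had a mean count under 1 in both strains. The part of this sum in the members' rise was not tested.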

How the data were processed

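Poly(A) RNA of 20 samples in 7 groups was measured by Smart-seq2, per the labels' protocols. Picard, TopHat, kallisto, bcl2fastq, DESeq2 and the build mm10 were used by the authors, per the submitters' processing notes, which state no role or order. File names give DESeq2 1.18.1 for the authors' 5 tables. Each gene's mean normalized count is a signal in the scaling of its strain, per the file headers. The log2 fold change (plain and shrunken) and its SE were deposited beside it. The authors also gave the Wald score, a p-value and its adjusted form. The mean was identical in all tables of a strain, so each strain was taken as 1 fit by the authors. The SE of Dppa3 at the B6CASTF1 2-cell step was 1.12 times that of the zygote step, the ratio that 2 samples against 3 would give.

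Calls used the authors' adjusted p under 0.05. From the deposited values, stage levels (weighted by samples per stage), strain differences, the net change from egg to 2-cell embryo and levels per kb were computed. Differences and net changes had normal p-values adjusted by Benjamini-Hochberg over all genes, and both computations were run on simulated data. Those data were drawn from the error model that the computations assume, so the runs check the arithmetic and not that model. Gene lists, members and tests were chosen with earlier results of these data known. Named genes were all members, up to 3 called genes per list and comparison with the smallest adjusted p and a mean count of at least 100, the 3 genes nearest to each of 6 members, and stage markers. Text names a subset of the list genes, and gives no fold where a level was under 1. Samples could not be tested anew, as single-sample values are not in the tables used here, and sample depth is unknown. Alternatives were an adjusted p under 0.01, Bonferroni, an absolute log2 fold change of at least 1, a mean count of at least 10 or 100, the shrunken fold change, recentring on the median, an SE raised 1.5 times, an SE that ignores shared samples and equal weights per stage. Tools were matplotlib 3.10.9, scipy 1.17.1, pandas 2.3.3 and numpy 2.4.6 under Python 3.11.15. Promoters were from RefSeq (GRCm38.p6), and gene positions from GENCODE M21.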

Additional observations from a re-analysis of the deposited data

Results flagged for a closer look

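Each of the following was picked out because the change of a gene differed between the strains by a direct test of the difference (B6CASTF1 minus C57BL/6J, normal p adjusted over 15324 genes). Dppa3 differed at both steps and in opposite directions: by -0.82 from G1 to G2 zygote and by 1.23 from G2 zygote to 2-cell embryo. Both values rest on the same G2 samples of each strain, and summed from G1 to 2-cell the difference was 0.42 (interval -0.19 to 1.02 with the largest possible SE). At the 2-cell step Dnmt1 differed by -1.47, Uhrf1 by -2.35, Dnmt3l by -1.92 and Tet2 by -6.59. Tet2 had an implied level of 1.99 in the B6CASTF1 2-cell embryos, of which there were 2 samples, so the size of its difference is loosely fixed (interval -10.03 to -3.16). Of all genes tested, 0.718% had a lower and 0.770% a higher value in B6CASTF1 at the first step, and 3.85% and 9.18% at the 2-cell step. Strain cannot be told apart from library set.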

How the results depend on the processing

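For the 31 called results of single members, 220 values were recomputed, of which 173 kept direction and call and 47 lost the call without a change of direction. Among members not called, 2 values reversed. They came from recentring on the median in B6CASTF1 from G1 to G2 zygote: Dnmt1 went to 0.00 and Dppa3 to 0.03. Bonferroni adjustment left 1 of 2 called members from G1 to G2 zygote and 3 of 7 at the 2-cell step in C57BL/6J, 0 of 2 and 4 of 8 in B6CASTF1, and 3 of 6 for the net change. An absolute log2 fold change of at least 1 left 1 of 2 from G1 to G2 zygote in each strain. Raising the SE 1.5 times left 0 there in C57BL/6J, 1 in B6CASTF1 and 3 of 6 net changes, and the SE that ignores shared samples left 3. The strain difference of Dppa3 from G1 to G2 zygote was lost, leaving 0 members, under an adjusted p of 0.01, Bonferroni, the minimum change of 1 and the raised SE. Of the 5 differences at the 2-cell step, Bonferroni and the raised SE each left 1, that of Dppa3. The opposite calls of Dppa3 at this step, -0.61 in C57BL/6J and 0.63 in B6CASTF1, were each lost under Bonferroni and under the minimum change of 1. Filters on the mean count altered no call of a member that passed them. The shrunken fold change, which carries no p of its own, kept the direction of each member. With 2-cell embryos weighted as 3 samples, the implied levels of Dnmt1 in B6CASTF1 were 12048, 11603 and 600. Leaving out single replicates was not run, since the tables hold no values per sample. No paired analysis was possible because the results come from tables without values per sample.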

Other observations

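From G1 to G2 zygote, genes of the wider pathway lists were called in both strains. At this step 9.63% of all genes rose and 9.63% fell in B6CASTF1, and 5.01% and 2.87% in C57BL/6J. Of 18 tested relatives and cofactors, 3 rose and 6 fell in B6CASTF1, and 1 rose and 0 fell in C57BL/6J. The gene that rose in C57BL/6J was Rbx1, the RING subunit of the CRL4 ubiquitin ligase that acts on TET proteins (log2 fold change 0.93, SE 0.28, adjusted p = 0.015 per the authors' deposited table). In B6CASTF1 Zfp281, a partner of TET1, went from an implied level of 254 to 862 (log2 fold change 1.76, SE 0.28, adjusted p = 1.3e-08), and Cul4a, the scaffold of that ligase, from 395 to 92.8 (-2.09, SE 0.55, adjusted p = 0.0016) per the authors' deposited table. Of 25 tested repair genes, 5 rose and 4 fell in B6CASTF1, beside those 9.63% each way, and 1 rose and 2 fell of 24 in C57BL/6J, beside 5.01% and 2.87%. Gadd45g rose 7.60-fold in B6CASTF1 (adjusted p = 1.9e-11), and the DNA glycosylase Mpg fell 4.75-fold (adjusted p = 6.0e-06), per the authors' deposited table. In C57BL/6J the repair polymerase Polb rose 3.09-fold (adjusted p = 0.026) and Parp1 fell 4.70-fold (adjusted p = 0.021) per the authors' deposited table. Parp1 then rose at the next step, so its G2 zygotes, used in both steps, were the low stage. Whether the counts differ between strains was not tested, and the SEs of B6CASTF1 were smaller.

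From MII egg to G1 zygote, where 1.62% of all genes rose and 1.12% fell by the authors' DESeq2 test, the lists of relatives, readers and repair genes had 0 called genes each. Of their 18, 10 and 24 tested genes, 1, 0 and 0 had an unadjusted p under 0.05. The methyl donor list had 1 faller of 18, and the imprint list 1 riser and 2 fallers of 18. The fallers of the imprint list were the maternal genes Nlrp14, from an implied level of 38887 to 13335 (log2 fold change -1.54, SE 0.44, adjusted p = 0.019), and Nlrp5, from 11013 to 3233 (-1.77, SE 0.50, adjusted p = 0.021), per the authors' deposited table. Nlrp5 then stood at 7713 in C57BL/6J G2 zygotes, above its G1 level, though no gene of this list was called as rising at that step.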
